A study of Mus musculus with 36 samples.

Results

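Expression of 10 temperature-responsive genes was followed in mouse liver across 2 genotypes and 3 times of day. The genes were the heat shock transcription factor Hsf1, the 7 cytosolic heat shock proteins and partners Hspa1a, Hspa1b, Hspa8, Hsph1, Dnajb1, Hsp90aa1 and Hspb1, and the cold-inducible RNA-binding protein genes Cirbp and Rbm3. They were taken as every array probe whose gene name in the scanner files is one of these symbols. That gave 22 of the 56605 non-control probes on the array, of which 21 were among the 34678 probes tested across the series. The remaining probe, 1 of 3 for Hsp90aa1 (A_55_P2352652), was well above background on only 4 of 36 arrays and was not tested.

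The 36 liver RNA samples came from male mice aged 11 weeks, were read on 1 array each, and fall into 6 groups of 6 by genotype and time. Mice called knockout here (IRLKO in the labels) carried an insulin receptor gene (Insr) with loxP sites around the fourth exon and a tamoxifen-inducible Cre recombinase driven by the transthyretin promoter, which is active in hepatocytes, on a cross with C57BL/6J. Mice called control (IRLWT) are the control line of that cross. The labels give neither the tamoxifen schedule nor whether controls carried Cre, and they describe all mice as receiving no treatment. All mice were kept at 21 to 23 °C with 12 h of light and 12 h of dark and ate a standard diet freely. Livers were sampled at Zeitgeber time (ZT, hours after lights-on) 8, 12 or 16, that is in the light phase, at lights-off and in the dark phase. The labels do not say that the 6 samples of a group are separate animals, so the p-values measure only the spread between these samples, which may be technical. In whole-liver RNA, fewer cells of a type and less RNA per cell cannot be told apart.

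Heat shock proteins are chaperones that hold and refold other proteins. Their genes are switched on when Hsf1 protein, released from chaperones and assembled into trimers, binds heat shock elements, which are inverted repeats of the unit GAA. Cirbp and Rbm3 respond the opposite way: their mRNAs accumulate at mildly lowered temperature and decline with warmth. In mammals body temperature itself cycles over the day, higher in the active phase, and in liver this cycle together with feeding drives a daily wave of heat shock gene expression and an opposite wave of Cirbp. Mice are active and feed mainly in the dark.

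Exact matches to known elements were searched around the start sites of these genes. RefSeq promoter windows (build GRCm38.p6, 250 bases before to 50 bases after a start site) were at hand for 6 of the 10 genes. Both forms of the heat shock element with 2 units were searched on both strands, GAANNTTC and TTCNNGAA, along with the 3-unit form GAANNTTCNNGAA, which contains the shorter ones. At least 1 of the 2-unit forms occurs in 15.1% of the 32544 distinct windows in the table and the 3-unit form in 0.608%. Among the 6 genes, 4 hold a 2-unit form (Hspa1a, Hspa1b, Hspb1 and Hsph1), and 1, Hsph1, holds the 3-unit form. The mild cold response element described for Cirbp, TCCCCGCC, occurs in 5.42% of all windows and in those of Cirbp, Hspa1a, Hspa1b and, at its second listed start, Dnajb1. The 250 bases before the first listed start are shown for the inducible Hsp70 gene Hspa1b (chr17:34959239-34959488, minus strand), for Hspb1 (chr5:135887669-135887918, plus strand), for Hsph1 (chr5:149636337-149636586, minus strand) and for Cirbp (chr10:80167589-80167838, plus strand), read 5′ to 3′ along the gene, with matches in capitals.
Hspa1b: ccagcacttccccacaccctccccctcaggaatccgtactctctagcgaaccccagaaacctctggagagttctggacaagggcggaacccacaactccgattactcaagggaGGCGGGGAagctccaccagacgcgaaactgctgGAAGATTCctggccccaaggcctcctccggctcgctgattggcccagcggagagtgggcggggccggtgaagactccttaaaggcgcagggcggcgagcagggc
Hspb1: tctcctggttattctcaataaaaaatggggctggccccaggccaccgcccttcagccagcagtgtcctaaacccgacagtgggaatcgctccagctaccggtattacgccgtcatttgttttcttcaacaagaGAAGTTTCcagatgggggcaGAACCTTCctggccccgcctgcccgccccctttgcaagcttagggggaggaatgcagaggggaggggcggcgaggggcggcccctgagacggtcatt
Hsph1: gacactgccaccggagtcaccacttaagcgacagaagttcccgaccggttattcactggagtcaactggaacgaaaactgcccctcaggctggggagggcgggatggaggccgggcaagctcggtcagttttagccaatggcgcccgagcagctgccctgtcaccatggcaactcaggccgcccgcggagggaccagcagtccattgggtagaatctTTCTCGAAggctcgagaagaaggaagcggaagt
Cirbp: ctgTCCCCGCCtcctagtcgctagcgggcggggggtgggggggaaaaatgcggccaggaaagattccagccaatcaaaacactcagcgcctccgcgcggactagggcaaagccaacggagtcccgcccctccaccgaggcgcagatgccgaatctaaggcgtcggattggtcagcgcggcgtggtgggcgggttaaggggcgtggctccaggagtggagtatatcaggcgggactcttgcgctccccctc
In Hspb1 both capital runs are 2-unit heat shock elements, beginning 117 and 97 bases before the start. In Hspa1b the heat shock element begins 104 bases before the start, and the other capital run, at 137 bases, is the cold element on the opposite strand. In Hsph1 a 2-unit form lies 33 bases before the start, and the 3-unit form begins 36 bases after it (read ttctggaaagttc along the gene, the form on the opposite strand). The single run in Cirbp is the cold element, 247 bases before the start. A match describes these letters only and is not evidence of binding. The lack of an exact match in these windows does not show that a gene has no such element.

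Hspa1a and Hspa1b encode the same inducible Hsp70 protein from neighbouring genes, and their promoters differ at only 3 of 250 positions. The array has a probe named for each gene, and these probes share no run longer than 5 bases. How far either also binds the other gene's transcript was not tested. Both probes lie on the minus strand of chromosome 17 in build mm9, at chr17:35106766-35106825 for Hspa1a and, by the files' coordinates, chr17:35093374-35093405 for Hspa1b. Their first 30 bases are given to show how the probes differ.
Hspa1a probe: agggaaactaaactgtctttcagttacttt
Hspa1b probe: taatctaagtaggttaaagatggtgtagtc
Values are log2 processed signals minus the array's 75th percentile, so 0 is the level of the 75th percentile spot. Levels of different probes are not compared with each other. Each gene is represented by its brightest probe unless a probe is named. A gene is said to rise, fall or change where limma's test, with p-values adjusted over all 34678 probes by the Benjamini-Hochberg method, gave an adjusted p under 0.05. The fitted differences adjust for the wash batch named in the labels and can differ slightly from differences of group means.

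Insr was lower in every knockout group, by log2 differences of -1.77, -1.88 and -1.65 at ZT8, ZT12 and ZT16 (limma adjusted p 1.4e-11, 2.8e-12 and 3.6e-11), on a probe whose place relative to the deleted exon is not known here. The 8 hepatocyte markers (Alb, Ttr, Apoa1 and others) were well above background on all arrays. Knockout ZT8 replicate 3 stood apart from its group for Hspa8 (5.63, the others 6.17 to 6.34), and results that rest on it are given with and without it. No spot was saturated, and 53.7% to 63.1% of spots per array were well above background.

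In control liver 9 of the 10 genes changed between ZT8 and ZT16, 8 higher and 1 lower, where 25.5% of all probes tested changed (12.8% higher, 12.7% lower). The median difference over the 10 genes was 1.90 on the log2 scale, against 0.03 over all probes. The exception was Hsf1. In 8 of the 10 genes the 6 ZT8 values and the 6 ZT16 values did not overlap, which held for 14.5% of all probes. In knockout liver 9 of 10 genes also changed over the same interval, 7 higher and 2 lower, against 28.5% of all probes (14.9% higher, 13.6% lower), and 4 did not overlap, against 9.54%. The median difference there was 1.00 over the 10 genes and 0.01 over all probes.

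**Figure D1:**
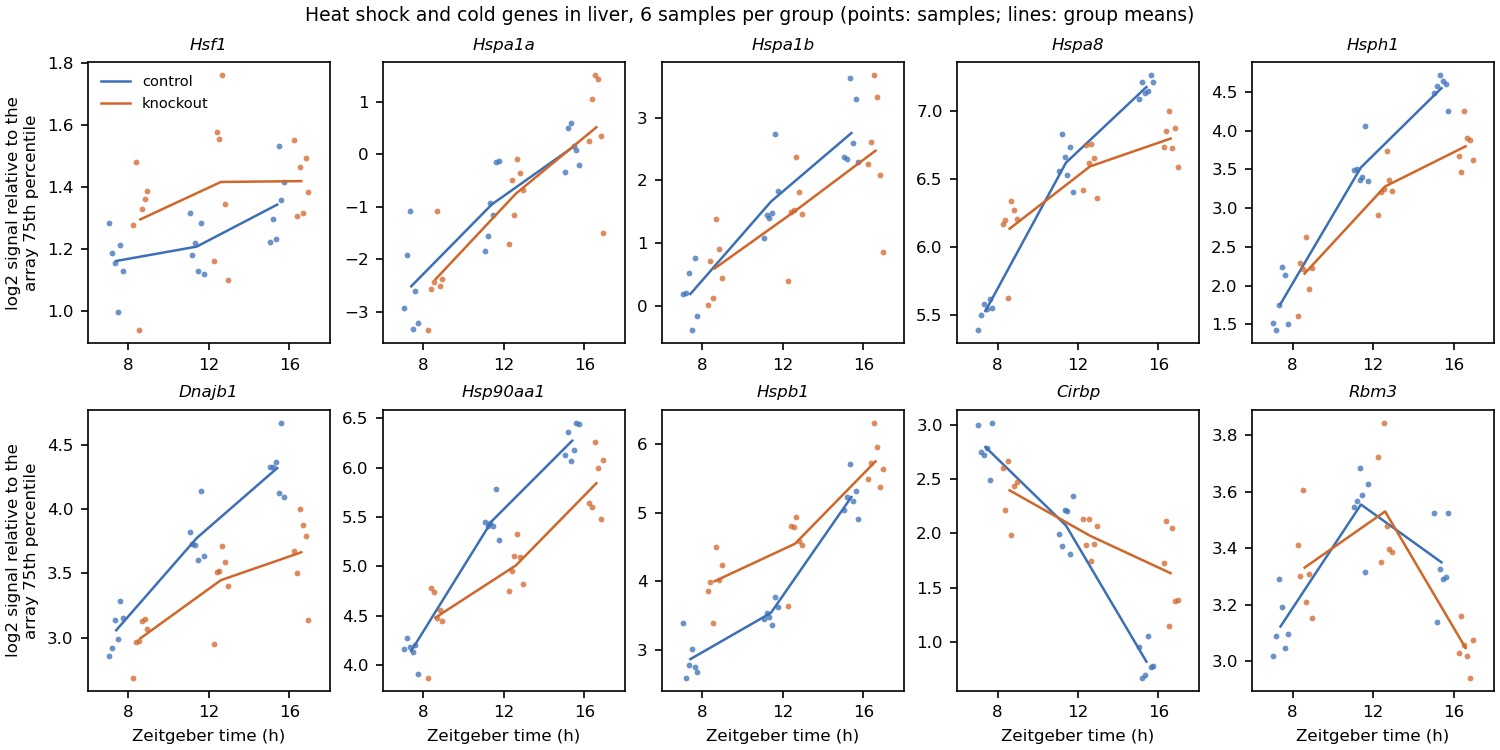
Signal of each gene (log2, relative to the array's 75th percentile) against Zeitgeber time, with 1 point per sample and lines through the means of 6 samples, control in blue and knockout in orange, drawn slightly before and after the true time to keep them apart. The heat shock genes climb from ZT8 to ZT16 in both genotypes, Cirbp declines, Rbm3 peaks at ZT12, and Hsf1 stays between 0.94 and 1.76.

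Hsf1 encodes the transcription factor that drives the heat shock response and is regulated mainly as a protein. Its mRNA level was 1.16 ± 0.10 (SD, n = 6) in control at ZT8 and 1.34 ± 0.12 at ZT16, a difference of 0.19 (SE 0.09, adjusted p 0.136). The 95% interval of that difference runs from 0.00 to 0.37. In knockout liver the means were 1.30 ± 0.19, 1.42 ± 0.26 and 1.42 ± 0.10 at ZT8, ZT12 and ZT16. No comparison of Hsf1 passed in the main analysis, and its values overlapped between every pair of groups compared. The knockout difference at ZT8 was 0.15 (adjusted p 0.207) with all arrays and 0.23 (adjusted p 0.0329) without knockout ZT8 replicate 3. At ZT12 it was 0.19 (adjusted p 0.0977), and it passed without knockout ZT12 replicate 1 (0.24, adjusted p 0.0429) or replicate 6 (0.25, adjusted p 0.0325). With array weights both differences and the control change from ZT8 to ZT16 passed (adjusted p 0.0310, 0.0201 and 0.0389), and the ZT12 difference also did with the same fit on the authors' deposited value table (adjusted p 0.0301) and after quantile normalization (adjusted p 0.0440).

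Hspa1a and Hspa1b spread widely among samples of the same group, with SDs of 0.37 to 1.12 and 0.42 to 1.00 over the 6 groups. Hspa1b ran from -0.39 to 0.76 in control at ZT8 with a median of 0.20, and from 2.30 to 3.63 with a median of 2.48 at ZT16. The groups did not overlap, and the rise was 2.53 on the log2 scale (SE 0.36, adjusted p 2.8e-06), or 5.76-fold. In knockout liver Hspa1b ran from 0.02 to 1.38 (median 0.57) at ZT8 and from 0.86 to 3.68 (median 2.44) at ZT16. There the highest ZT8 sample lay above the lowest ZT16 sample, and the rise was 1.84 (SE 0.36, adjusted p 0.00019). Hspa1a in control ran from -3.32 to -1.08 (median -2.77) at ZT8 and from -0.34 to 0.60 (median 0.11) at ZT16, again without overlap. It rose by 2.57 in control and 2.87 in knockout (SE 0.42 each, adjusted p 2.4e-05 and 4.3e-06). Its knockout ZT16 samples ranged from -1.50 to 1.51, and the lowest, replicate 6, was also the lowest of its group for Hspa1b.

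For this inducible Hsp70 pair no difference between genotypes passed at any time. The knockout minus control differences of Hspa1a were 0.16, 0.18 and 0.45 at the successive times, and those of Hspa1b were 0.44, -0.19 and -0.24. The intervals are wide: at ZT16 they run from -0.41 to 1.31 for Hspa1a and from -0.98 to 0.49 for Hspa1b. The change of the genotype difference from ZT8 to ZT16 was 0.30 for Hspa1a and -0.69 for Hspa1b, with adjusted p of 0.847 and 0.481. With this spread the data do not tell apart differences between genotypes within those intervals.

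Hspa8 encodes the constitutive Hsp70, abundant in unstressed cells and the main chaperone for newly made cytosolic proteins. In control liver its level was 5.39 to 5.62 (median 5.55) at ZT8, 6.41 to 6.83 (median 6.61) at ZT12 and 7.09 to 7.26 (median 7.18) at ZT16. No 2 of these groups overlapped, and the ZT8 to ZT16 rise was 1.63 (SE 0.09, adjusted p 1.5e-13), or 3.10-fold. In knockout liver the levels were 5.63 to 6.34 (median 6.20), 6.36 to 6.76 (median 6.64) and, at ZT16, from 6.59 upward (median 6.79). The rise there was 0.66 (SE 0.09, adjusted p 2.6e-06), or 1.58-fold. The knockout was above control by 0.61 at ZT8 (SE 0.10, adjusted p 7.0e-06) and below it at ZT16, where the difference was -0.37 (adjusted p 0.0025). At ZT12 the difference was -0.03 (adjusted p 0.822). At ZT8 and at ZT16 the genotypes did not overlap, and the exact two-sided permutation p was 0.00216 at each, the smallest that 6 against 6 allows.

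Ordered by mean, Hspa8 was lowest in control ZT8, then knockout ZT8, knockout ZT12, control ZT12, knockout ZT16 and control ZT16. The ranges of knockout ZT12 and control ZT12 overlap, as do those of control ZT12 and knockout ZT16, while the other neighbours are separate. Its 3 other probes lie upstream of it on the plus strand (mm9, from chr9:40610620-40610679 to chr9:40611841-40611900) and also rose more in control (1.72, 1.80 and 1.80) than in knockout (0.48, 0.66 and 0.75). The lowest knockout ZT8 sample, replicate 3 at 5.63, sat next to the control range, and without it the ZT8 difference was 0.71.

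Hsph1 encodes Hsp110, which exchanges nucleotide on Hsp70 and helps it to dissolve aggregates. Its control level rose from 1.42 to 2.25 (median 1.63) at ZT8 to 4.26 to 4.72 (median 4.59) at ZT16, with no overlap. The difference of 2.78 (SE 0.17, adjusted p 2.2e-13), or 6.87-fold, ranked 31 of 34678 probes among rises. In knockout liver Hsph1 went from 1.61 to 2.63 (median 2.22) to 3.46 to 4.25 (median 3.77), a rise of 1.63 (SE 0.17, adjusted p 1.1e-08). At ZT16 every knockout sample was below every control sample, with a difference of -0.75 (SE 0.17, adjusted p 0.00072). At ZT8 the difference was 0.40 (adjusted p 0.064), which passed without control ZT8 replicate 4, control ZT8 replicate 5 or knockout ZT8 replicate 1 (adjusted p 0.0167 to 0.0303, log2 0.49 to 0.51), after quantile normalization (0.43, adjusted p 0.0416) and with the same fit on the authors' deposited value table (0.42, adjusted p 0.0458).

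Hsph1 has 2 other probes. One (A_55_P2003513) rose by 2.92 in control and 1.70 in knockout, and differed between genotypes at ZT8 (0.52, adjusted p 0.0196), where the brightest probe did not pass. The other (A_55_P2931347) was well above background on 21 of 36 arrays and on none of the control ZT8 arrays, so its control rise is at least 3.31-fold.

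Dnajb1 encodes Hsp40, the J-domain partner that delivers clients to Hsp70. Its control level was 2.86 to 3.28 (median 3.07) at ZT8 and 4.09 to 4.67 (median 4.33) at ZT16. The rise of 1.25 (SE 0.13, adjusted p 8.8e-09) separated the groups fully. In knockout liver it ran from 2.69 to 3.14 (median 3.02) at ZT8 and from 3.14 to 4.00 (median 3.73) at ZT16, a rise of 0.65 (SE 0.13, adjusted p 0.00018). The groups touched at 3.14. The knockout difference at ZT8 was -0.05 (95% interval -0.31 to 0.21), and the knockout was lower at the later times, with differences of -0.34 at ZT12 and -0.64 at ZT16 (adjusted p 0.0311 and 0.00017). At ZT16 no knockout sample reached the lowest control sample. The ZT12 call was lost without any 1 of control ZT12 replicates 1 and 5 or knockout ZT12 replicates 1 and 6 (log2 -0.34 to -0.25, adjusted p 0.053 to 0.114). It was also lost in 4 of the 12 other settings: after quantile normalization (-0.23, adjusted p 0.158), with the same fit on the authors' deposited value table (-0.19, adjusted p 0.233), with array weights (-0.29, adjusted p 0.0532) and with no filter on dim probes (adjusted p 0.0557).

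Hsp90aa1 encodes the inducible cytosolic Hsp90, which holds kinases and steroid receptors in an activatable state. Its control level was 3.91 to 4.27 (median 4.17) at ZT8 and 6.07 to 6.45 (median 6.27) at ZT16, a rise of 2.16 (SE 0.13, adjusted p 1.8e-13), or 4.48-fold. In knockout liver it was 3.87 to 4.78 (median 4.52) and 5.48 to 6.26 (median 5.82), a rise of 1.34 (SE 0.13, adjusted p 2.7e-09). Neither pair of groups overlapped. The knockout was higher at ZT8 by 0.35 (adjusted p 0.0306). It was lower at the later times, with differences of -0.46 at ZT12 and -0.47 at ZT16 (adjusted p 0.0041 and 0.0039), and ranges overlapped each time. The ZT8 call was lost without control ZT8 replicate 5 or 6 or any 1 of knockout ZT8 replicates 2 to 6 (log2 0.31 to 0.34, adjusted p 0.0541 to 0.0717), with the array median subtracted (0.29, adjusted p 0.108), with no filter on dim probes (adjusted p 0.0550) and with no wash batch term (adjusted p 0.0504). The second tested probe (A_55_P2740832) gave 0.17 at ZT8, which did not pass (adjusted p 0.331), and -0.67 at ZT16.

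Hspb1 encodes the small heat shock protein Hsp25 (Hsp27 in humans), which binds unfolding proteins without ATP. It rose like the others but was higher in knockout liver at every time. In control liver it ran from 2.60 to 3.40 (median 2.77) at ZT8, 3.37 to 3.77 (median 3.52) at ZT12 and 4.91 to 5.71 (median 5.20) at ZT16. In knockout liver it ran from 3.40 to 4.50 (median 4.01), 3.64 to 4.94 (median 4.69) and 5.37 to 6.31 (median 5.67). The genotypes met at 3.40 at ZT8, only knockout replicate 1 lay within the control range at ZT12, and at ZT16 the ranges shared 5.37 to 5.71. Differences of 1.13, 1.00 and 0.56 followed at the successive times (SE 0.18 at ZT8, adjusted p 1.3e-05, 5.6e-05 and 0.016). The last was lost without knockout ZT16 replicate 3 (0.41, adjusted p 0.055), with the array median subtracted (0.46, adjusted p 0.0726) and with only the groups compared fitted (0.52, adjusted p 0.0513). The rise from ZT8 to ZT16 was 2.32 in control and 1.74 in knockout (adjusted p 6.8e-11 and 1.6e-08), and the difference of these rises, -0.58, did not pass (adjusted p 0.176), except with array weights (-0.69, adjusted p 0.0470).

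**Figure D2:**
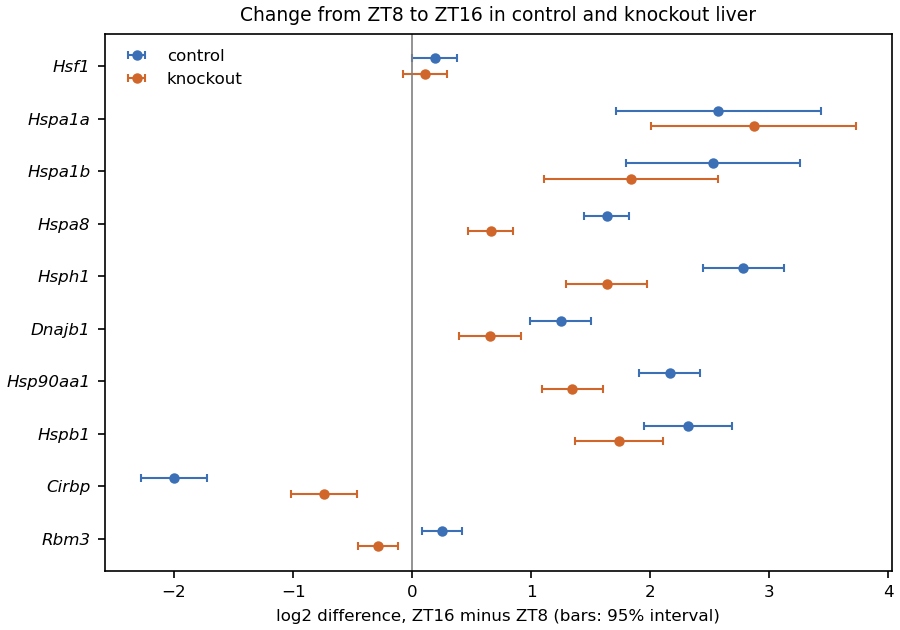
Log2 difference between ZT16 and ZT8 for each gene, with 95% intervals from the fit, control in blue and knockout in orange. Hspa8, Hsph1 and Hsp90aa1 lie further from 0 in control than in knockout, as does Cirbp on the negative side, while the intervals of Hspa1a and Hspa1b overlap.

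Cirbp moved opposite to the heat shock genes. It encodes an RNA-binding protein of the cold response that also influences the amplitude of clock gene cycles. In control liver its level was 2.49 to 3.02 (median 2.77) at ZT8, 1.81 to 2.34 (median 2.10) at ZT12 and 0.67 to 1.05 (median 0.77) at ZT16. Each group lay entirely below the one before, and the ZT8 to ZT16 fall was -2.00 on the log2 scale (SE 0.14, adjusted p 3.2e-12), to 25.0% of the ZT8 level. In knockout liver the levels were 1.99 to 2.67 (median 2.45), 1.75 to 2.14 (median 1.98) and 1.15 to 2.11 (median 1.56). That fall was -0.74 (SE 0.14, adjusted p 9.9e-05), and the ZT16 range reached into that of ZT8.

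On its brightest probe the genotype difference of Cirbp changed sign. The knockout was lower at ZT8, with a difference of -0.42 (adjusted p 0.0167), the difference at ZT12 was -0.07 (adjusted p 0.713), and the knockout was higher at ZT16 by 0.84 (SE 0.14, adjusted p 1.2e-05), or 1.79-fold. At ZT16 all 6 knockout samples were above all 6 control samples (exact permutation p 0.00216). The ZT8 call was lost without knockout ZT8 replicate 4 (-0.33, adjusted p 0.0582) and with only the groups compared fitted (-0.39, adjusted p 0.0662). Of the 21 tested probes of the 10 genes, this was the only 1 called lower in knockout at ZT8. No other Cirbp probe was called lower then, so the change of sign rests on the brightest probe. At ZT8, 10 of the 11 other tested probes of the 10 genes had the sign of their gene's brightest probe. The exception was Cirbp A_55_P1985001, whose difference at ZT8 was positive. Ordered by mean, Cirbp was highest in control ZT8, followed by knockout ZT8, control ZT12, knockout ZT12, knockout ZT16 and control ZT16. Only the last pair of neighbours had ranges that did not overlap.

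Rbm3 did not follow Cirbp over time. It encodes a related cold-inducible RNA-binding protein. In control liver it rose from 3.02 to 3.29 (median 3.09) at ZT8 to 3.31 to 3.69 (median 3.58) at ZT12, a difference of 0.43 (SE 0.08, adjusted p 0.00043) with no overlap, and was 3.14 to 3.53 (median 3.31) at ZT16. In knockout liver it was 3.15 to 3.60 (median 3.31), 3.35 to 3.85 (median 3.44) and 2.94 to 3.16 (median 3.04). The fall from ZT12 to ZT16 there was -0.48 (SE 0.08, adjusted p 0.00017), with every ZT16 sample below every ZT12 sample. Over the whole interval Rbm3 rose by 0.25 in control (adjusted p 0.0258), while the knockout difference was -0.29 (adjusted p 0.0087). The control call was lost without any 1 of control ZT8 replicates 1, 2 and 5 or control ZT16 replicates 1 and 6 (log2 0.21 to 0.23, adjusted p 0.0553 to 0.0822) and in 4 of the 12 other settings (adjusted p 0.0517 to 0.146), and the knockout call with only the groups compared fitted (-0.28, adjusted p 0.0609). The genotype difference was 0.21 at ZT8 (adjusted p 0.0496) and -0.32 at ZT16 (adjusted p 0.0025), and the former was lost without any 1 of 23 of the 36 arrays, knockout ZT8 replicate 3 among them (adjusted p 0.131), and in 5 of the 12 other settings (log2 0.14 to 0.22, adjusted p 0.0618 to 0.259). The ZT16 call was lost with the same fit on the authors' deposited value table (-0.20, adjusted p 0.0900).

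The probes of the cold genes did not all behave alike, so their positions (mm9) and first 30 bases are given. Cirbp was represented by a probe at chr10:79634233-79634292 on the plus strand, and Rbm3 by one at chrX:7719656-7719715 on the minus strand. The probes that departed from these lie at chr10:79635422-79635481 and chrX:7716198-7716257.
Cirbp A_55_P2813676: ccatggggagcatagcagtccgggaggctg
Cirbp A_55_P1985001: cttctgtggaaaagataaagaagctgggct
Rbm3 A_51_P262340: atggccagaaagtgatttctgaatgtacct
Rbm3 A_55_P2766239: tgagctatctccctttatttttaaggtcag
The Cirbp probe A_55_P1985001 gave means from -1.62 to -1.18 in the 6 groups, and its ZT16 minus ZT8 difference was -0.15 in control (adjusted p 0.423) and 0.00 in knockout (adjusted p 0.986). It was higher in knockout at ZT16 by 0.44 (adjusted p 0.005). Its difference at ZT8 was also positive, opposite to that of the brightest probe. The dimmest Cirbp probe, A_55_P2506450, followed the brightest, with falls of -1.76 in control and -0.66 in knockout. For Rbm3, A_55_P2117525 and A_55_P2901762 gave ZT16 knockout differences of -0.31 and -0.46, both called. At ZT8 the former was higher in knockout by 0.44 (adjusted p 0.00031), with no overlap between genotypes, and the latter gave 0.18 (adjusted p 0.215). A_55_P2766239 rose over the interval in control by 0.58 (adjusted p 0.00042), more than the brightest probe (0.25). In knockout its change over the interval was positive and not called, while the other Rbm3 probes fell, with -0.29 on the brightest. A_55_P2766239 showed no called difference between genotypes at ZT8 or ZT16 (0.17 and -0.20). Exon annotation of build mm9 was not used here, so which transcript forms these probes read is not given.

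**Figure D3:**
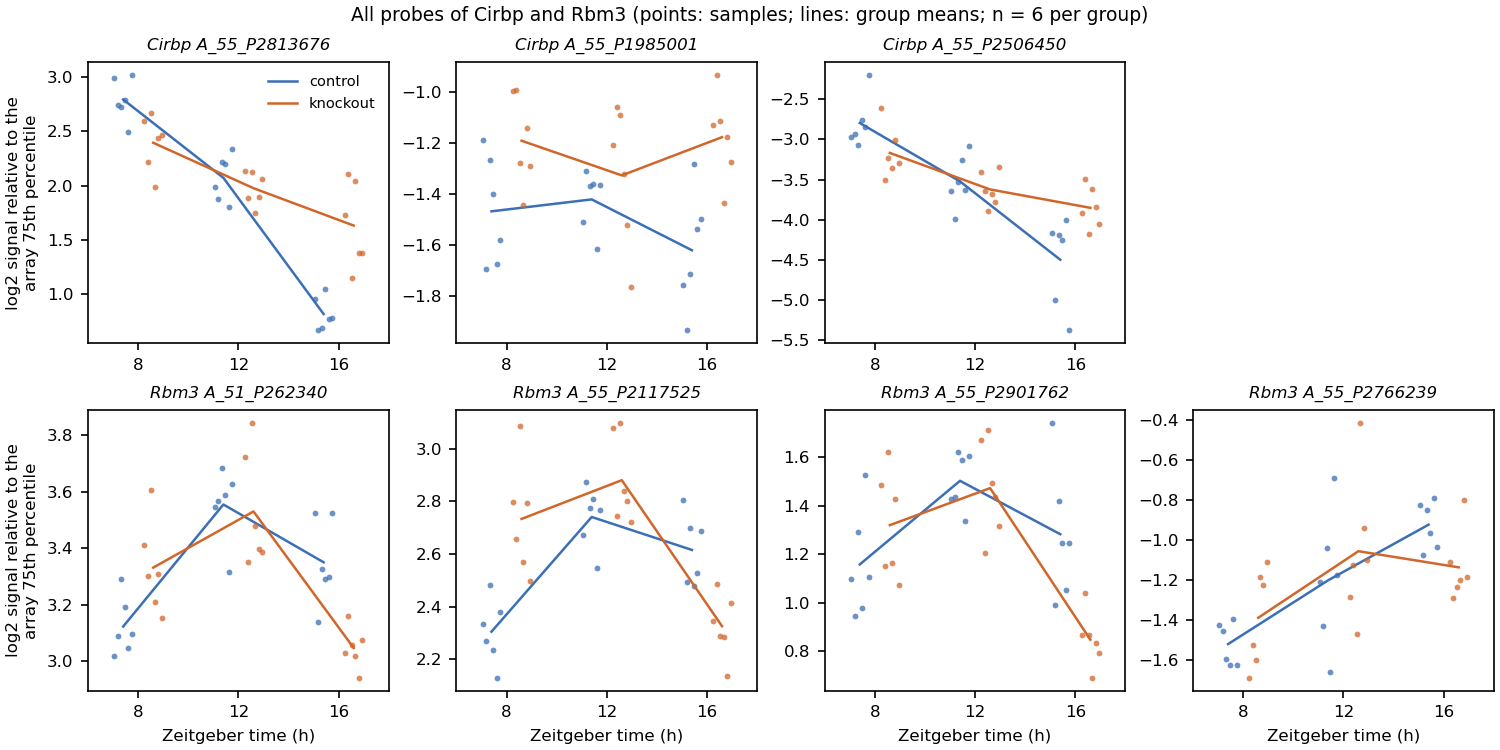
All 3 Cirbp probes and all 4 Rbm3 probes, log2 signal relative to the array's 75th percentile against Zeitgeber time, with points for samples, lines for means of 6 and the genotypes drawn slightly apart in time. Cirbp A_55_P1985001 is the one Cirbp probe without a called decline, and Rbm3 A_55_P2766239 is the one Rbm3 probe whose control mean is highest at ZT16.

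Whether the genotype difference depended on the time was tested directly. Between ZT8 and ZT16 it changed in 6 of the 10 genes, where 8.78% of all probes did so (4.70% more positive, 4.08% more negative). It became more negative in Hspa8 (-0.98, SE 0.13, adjusted p 1.6e-05), Hsph1 (-1.15, adjusted p 0.0018), Hsp90aa1 (-0.82, adjusted p 0.003), Rbm3 (-0.53, adjusted p 0.0032) and Dnajb1 (-0.59, adjusted p 0.0335). It became more positive in Cirbp (1.26, SE 0.19, adjusted p 7.7e-05). All 11 other tested probes of these genes had the same sign as their gene's brightest probe, and 9 of them were also called. Within the 3 wash batches the values ran from -1.11 to -0.77 for Hspa8, -1.20 to -0.79 for Hsph1, -0.92 to -0.78 for Hsp90aa1, -0.84 to -0.27 for Rbm3, -0.75 to -0.39 for Dnajb1 and 0.67 to 1.80 for Cirbp. The Dnajb1 call was lost in 5 of the 12 other settings tried and without any 1 of 9 arrays (log2 -0.58 to -0.51, adjusted p 0.0528 to 0.071): control ZT8 replicates 1 and 4, control ZT16 replicate 5, knockout ZT8 replicates 2, 4 and 5 and knockout ZT16 replicates 1, 2 and 6.

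An F test over the 3 times called 5 genes, Hspa8, Hsph1, Hsp90aa1, Cirbp and Rbm3, against 7.24% of all probes. Dnajb1 did not pass it (adjusted p 0.091), except without knockout ZT16 replicate 3 (adjusted p 0.0356) and with array weights (adjusted p 0.0275). The Cirbp probe A_55_P1985001 and the Rbm3 probe A_55_P2766239 did not pass the F test either (adjusted p 0.417 and 0.322). The other tested probes of the 5 genes did. Between ZT8 and ZT12 the difference changed in Hspa8 (-0.64, adjusted p 0.0133) and Hsp90aa1 (-0.81, adjusted p 0.0205), where 0.969% of all probes did (0.533% in that direction, 0.435% in the other), and 1 of the 3 other Hspa8 probes also passed. The other tested Hsp90aa1 probe did not pass. The Hsp90aa1 call was lost without control ZT12 replicate 5 or knockout ZT8 replicate 5 (adjusted p 0.0536 and 0.0506), and both calls with the array median subtracted (adjusted p 0.0865 for Hspa8 and 0.0630 for Hsp90aa1). Between ZT12 and ZT16 the genotype difference changed in Cirbp (0.91, adjusted p 0.0113), where 1.49% of all probes did (0.830% in that direction, 0.663% in the other). No other tested probe of the 10 genes passed for that step, and so no other Cirbp probe.

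**Figure D4:**
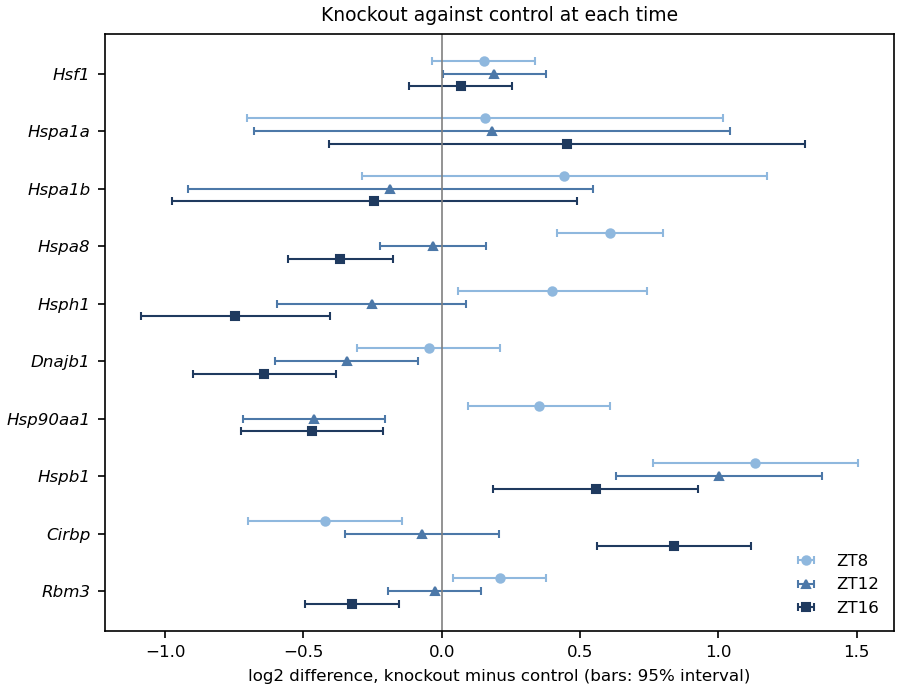
Log2 difference between knockout and control for each gene at ZT8 (circles), ZT12 (triangles) and ZT16 (squares), with 95% intervals from the fit. Hspa8 and Cirbp lie on opposite sides of 0 at ZT8 and ZT16, and Hspb1 is above 0 at all 3 times.

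Counted by time, the knockout differed from control in 5 of 10 genes at ZT8 (4 higher, 1 lower), 3 at ZT12 (1 higher, 2 lower) and 7 at ZT16 (2 higher, 5 lower). The shares of all probes called were 33.7% at ZT8 (16.2% higher, 17.5% lower), 39.3% at ZT12 (18.4% higher, 20.8% lower) and 37.9% at ZT16 (18.7% higher, 19.1% lower), so the counts at ZT8 and ZT12 are near the background. Each called difference, here and between times, had the same sign in all 3 wash batches. The ranges over batches at ZT16 were 0.49 to 1.25 for Cirbp, 0.05 to 1.06 for Hspb1, -0.42 to -0.31 for Hspa8 and -0.93 to -0.32 for Hsph1. The genotypes did not overlap in 1, 0 and 4 of the 10 genes, against 14.2%, 19.7% and 17.6% of all probes. At ZT12, where none was separate, limma called 3 genes and 4 had an unadjusted p under 0.05. The median difference over the genes was 0.28, -0.05 and -0.28, against 0.01, -0.0045 and 0.01 over all probes. The ZT8 count was 3 without control ZT8 replicate 6 or knockout ZT8 replicate 4 or 5. Without knockout ZT8 replicate 3, Hsp90aa1 (0.32, adjusted p 0.0616) and Rbm3 left the list and Hsf1 entered it.

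The interval was also split into its 2 steps. From ZT8 to ZT12, 9 genes changed in control (8 higher) and 5 in knockout (all higher: Hspa1a, Hspa8, Hsph1, Dnajb1 and Hsp90aa1), where 13.6% and 12.3% of all probes changed (7.01% and 6.22% higher, 6.61% and 6.09% lower). Groups were separate in 7 and 2 genes, against 8.90% and 4.19% of probes. The knockout Dnajb1 step (0.42) was lost without any 1 of knockout ZT8 replicates 1 and 5 or knockout ZT12 replicates 3, 4 and 5 (adjusted p 0.0529 to 0.0699), and the Hspb1 step (0.54, adjusted p 0.0527) passed without any 1 of 5 arrays (control ZT8 replicate 1, control ZT16 replicate 3, knockout ZT8 replicate 4, knockout ZT12 replicate 1 and knockout ZT16 replicate 3, adjusted p 0.0072 to 0.0412). In the 12 other settings this Dnajb1 step was lost in 3 (adjusted p 0.0534 to 0.153), and this Hspb1 step passed in 6 (adjusted p 0.0319 to 0.0491). The Cirbp step in knockout (-0.37) passed without knockout ZT8 replicate 4 (-0.46, adjusted p 0.0213) and with no wash batch term (-0.42, adjusted p 0.0400). The Rbm3 step (0.20) passed without knockout ZT8 replicate 3 (0.24, adjusted p 0.0494). From ZT12 to ZT16, 6 genes changed in control (5 higher) and 5 in knockout (4 higher), where 2.98% and 11.3% of all probes did (1.36% and 6.17% higher, 1.62% and 5.18% lower). Groups were separate in 5 and 3 genes, against 2.75% and 4.98% of probes. Comparisons between times of a genotype share groups. Among the 10 genes Hspb1 had the largest control rise from ZT12 to ZT16, 1.64 (SE 0.18, adjusted p 2.6e-06), ranked 40 of 34678 among rises. The fall of Cirbp in the same step was -1.28 in control (adjusted p 1.4e-06) and -0.37 in knockout (adjusted p 0.0791), where it passed without knockout ZT16 replicate 2 or 4 (-0.44 and -0.43, adjusted p 0.0392 and 0.0465). The control Dnajb1 step (0.53) was lost without control ZT12 replicate 6 (0.50, adjusted p 0.0543), and the knockout Hspa1b step passed without knockout ZT16 replicate 5 or 6 (adjusted p 0.0106 to 0.048). In the 12 other settings this Dnajb1 step was lost in 2 (adjusted p 0.0693 to 0.0695). Knockout steps from ZT12 to ZT16 that passed in 2 of them were those of Hspa1b (adjusted p 0.0212 to 0.0443), Cirbp (0.0224 to 0.0489) and Hspa8 (0.0226 to 0.0283). The knockout steps of Hspa1a and Hsph1 were lost in 4 and 3 of these settings (adjusted p 0.0508 to 0.136 and 0.0659 to 0.136). The knockout count from ZT12 to ZT16 was 3 without knockout ZT12 replicate 1, 2, 3 or 6 or knockout ZT16 replicate 3, as Hspa1a and Hsph1 dropped out.

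Other chaperones and co-chaperones were described by lists. The lists were chosen with earlier results of these data known. Of 61 tested genes in 7 lists, 26 rose and 4 fell between ZT8 and ZT16 in control, and 23 rose and 8 fell in knockout. Over all probes 12.8% rose and 12.7% fell in control, and 14.9% rose and 13.6% fell in knockout, which is the background for each count of this interval below. The median differences were 0.23 and 0.17, against 0.03 and 0.01 over all probes. In the list of Hsp90 and its co-chaperones 9 of 13 were higher in control and 8 in knockout, and none lower. Stip1, which bridges Hsp70 and Hsp90, rose by 1.31 and 0.92, the co-chaperone Fkbp4 by 1.17 and 0.76, and the constitutive Hsp90ab1 by 0.89 and 0.33. At ZT16, 8 of these 13 genes were lower in knockout and none higher, where 19.1% of all probes were lower and 18.7% higher. The genotype difference became more negative from ZT8 to ZT16 in 6 of them, against 4.08% of all probes. Over all 7 lists, 22 of the 61 genes were lower and 4 higher in knockout at ZT16. The genotype difference became more negative in 12 of the 61 and more positive in 4, against 4.08% and 4.70% of all probes.

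Among the J-domain partners of Hsp70, 6 of 10 rose in control and none fell, while 5 rose and 2 fell in knockout. Dnaja1 rose by 0.95 in control and had 0.07 in knockout (adjusted p 0.73), and its genotype difference changed by -0.89 (adjusted p 0.00058). In the Hsp70 and Hsp110 family 2 rose and 2 fell of 9 in control. The ones higher were Hspa4l (1.74) and Hspa2 (1.59), and in knockout these had 0.95 (called) and 0.16 (adjusted p 0.58). Hspa13 was the reverse, with 0.38 in control (adjusted p 0.16) and a rise of 1.26 in knockout. The chaperonins, which fold proteins inside a closed chamber, had 6 of 10 higher in control and 2 in knockout, with small values such as 0.52 and 0.42 for Cct3. Of the nucleotide exchange factors 2 of 7 rose in control and 1 in knockout, Bag3 in both (1.23 and 0.95), and of the small heat shock proteins 1 of 7 in control and 2 in knockout, Hspb8 in both (1.05 and 0.69). Of 5 other heat shock factors and regulators none changed in control, while 1 rose and 2 fell in knockout, with -0.69 for Hsf2.

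Among 16 RNA-processing genes linked to temperature, 4 rose and 4 fell in control, and 3 rose and 5 fell in knockout, against 12.8% higher and 12.7% lower over all probes in control and 14.9% and 13.6% in knockout. The splicing regulator Rbm4 was among those that rose in both genotypes, by 0.65 and 0.30. Rtn3 had -0.06 and 0.03 (adjusted p 0.494 and 0.801).

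Genes whose profiles over the 36 arrays were most like Hspa1b were P4ha1, Rbm12b2, Vps37b, an unnamed transcript and the Hsp90 activator Ahsa1, with Pearson r of 0.86, 0.86, 0.86, 0.85 and 0.85 among 17792 genes ranked. Those most like Cirbp were Smim7 (0.93), Nosip (0.93), a transcript listed as ENSMUST00000150411 (0.91) and Wbscr27 (0.91). These correlations are descriptions across arrays that share group, time and scaling, with no test.

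To see whether the genes also varied together between samples of the same group, group and wash batch means were removed and all 45 pairs were correlated over the 36 arrays. Permutations were made within groups. All values of an array share its scaling. After Benjamini-Hochberg adjustment over the 45 pairs, 19 passed, 17 positive and 2 negative. Hspa1a and Hspa1b had the highest value (Pearson r 0.79, Spearman rho 0.79, permutation p 1e-05, the smallest that 100000 draws can give). Hspa1b and Dnajb1 had r 0.77 and rho 0.62, and Hsph1 and Dnajb1 had 0.68 and 0.67 (permutation adjusted p of r 0.00022 and 0.0003). The negative pairs were Cirbp with Hsph1 (r -0.64, rho -0.57, permutation adjusted p 0.0016) and Cirbp with Hspa8 (r -0.62, rho -0.62, permutation adjusted p 0.0032). Cirbp and Rbm3 went together (r 0.57, rho 0.59, permutation adjusted p 0.0019), although their means over time did not.

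Leaving out the 2 arrays farthest from the median of 1 gene of the pair kept the sign of all 19 pairs. That gene was Hsph1 or Hspa8 in the negative pairs. The values were then 0.71 for Hspa1a with Hspa1b, 0.67 for Hspa1b with Dnajb1, 0.62 for Hsph1 with Dnajb1, -0.64 for Cirbp with Hsph1, -0.63 for Cirbp with Hspa8 and 0.58 for Cirbp with Rbm3. The largest drop in absolute r was 0.18, for Hspa1a with Dnajb1 (0.54, then 0.36). After quantile normalization Hsf1 with Hspa8 (r 0.64, rho 0.57) no longer passed, with r 0.20 (permutation adjusted p 0.258), and the count of pairs was 20. The same held for Hsf1 with Hspb1 (r 0.44, then 0.36), Hspa1b with Hsp90aa1 (r 0.51, then 0.38) and Hspa1a with Hsp90aa1 (r 0.42, then 0.33), with permutation adjusted p of 0.107, 0.0912 and 0.114. Pairs that passed only then were Hspa8 with Hsph1 (r 0.59), Hspa8 with Hsp90aa1 (0.44), Hspb1 with Cirbp (-0.44), Hsf1 with Cirbp (-0.38) and Hsf1 with Rbm3 (-0.45), with permutation adjusted p of 0.0026, 0.0391, 0.0392, 0.0480 and 0.0391.

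**Figure D5:**
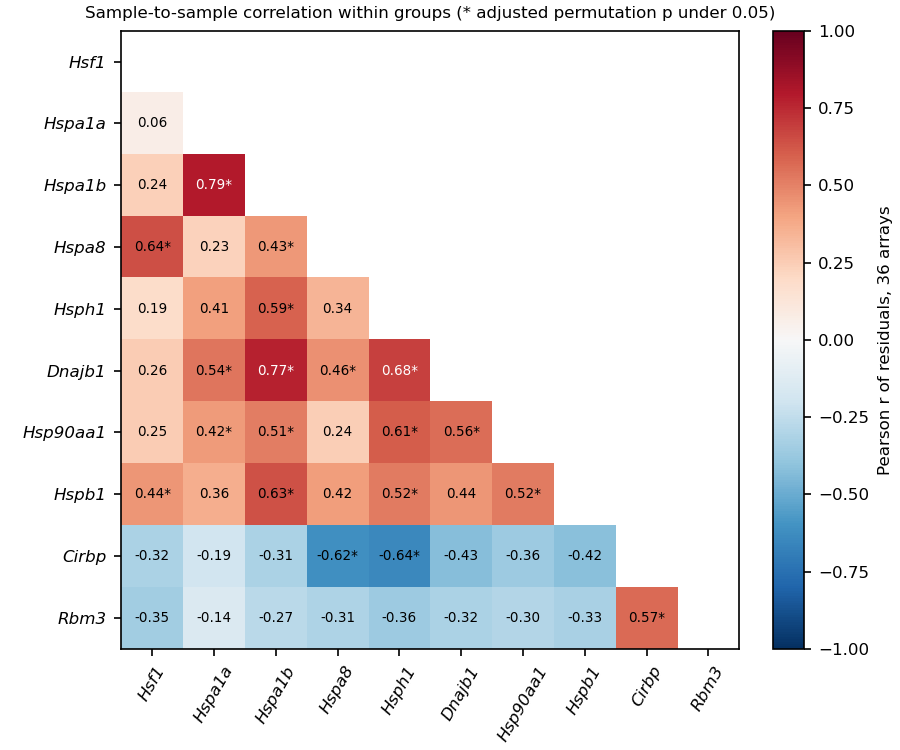
Pearson r for each pair of genes over 36 arrays after group and wash batch means were removed, red for positive and blue for negative, with an asterisk where the permutation p adjusted over 45 pairs is under 0.05. Values among the heat shock genes are positive, led by Hspa1a with Hspa1b at 0.79, though some of these pairs carry no asterisk. Both cold genes have negative values against all of them, with an asterisk only for Cirbp with Hsph1 and Cirbp with Hspa8.

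Summed signals of marker lists for the liver's cell types are given beside these results, in multiples of the array's 75th percentile. For 8 hepatocyte markers the sum at ZT8 was 3935 to 4733 in control and 3025 to 4387 in knockout, and at ZT16 it was 4215 to 4841 and 3833 to 4102. The genotypes overlapped at ZT8 and were separate at ZT16, with knockout lower. At ZT12 the hepatocyte sums were 4246 to 4623 in control and 3321 to 4244 in knockout, also separate. For 6 macrophage markers (Cd68, Adgre1, Clec4f and others, all above background) the sums were 46.0 to 112 and 66.6 to 282 at ZT8, and 44.4 to 158 and 95.6 to 320 at ZT16. For 6 endothelial markers they were 27.7 to 34.4 and 26.4 to 36.9 at ZT8, and 26.1 to 39.1 and 35.1 to 44.6 at ZT16. For 6 stellate cell and fibroblast markers they were 43.1 to 60.6 and 38.2 to 100.2 at ZT8, and 45.7 to 79.6 and 65.1 to 89.8 at ZT16. The means of the macrophage and stellate lists were higher in knockout at both times, while the endothelial mean was 31.6 in control and 32.0 in knockout at ZT8. The sums of 4 bile duct markers (1 well above background on all arrays) were 0.626 to 1.07 and 0.418 to 1.32 at ZT8, and 0.617 to 1.14 and 0.987 to 1.90 at ZT16. Those of the 3 tested lymphocyte markers of 5 were 9.36 to 11.6 and 8.04 to 9.72 at ZT8, and 10.6 to 13.3 and 7.70 to 10.7 at ZT16. Those of 3 red cell markers were 215 to 591 and 180.2 to 369 at ZT8, and 209.8 to 338 and 361 to 617 at ZT16. The bile duct and red cell means were lower in knockout at ZT8 (0.736 against 0.823 and 277 against 338) and higher at ZT16 (1.37 against 0.939 and 471 against 257). Immediate early genes, which respond to handling and many stimuli, summed to 66.7 to 89.5 at ZT8 and 45.5 to 59.8 at ZT16 in control, and to 89.7 to 151 and 58.5 to 90.3 in knockout. Of the 14, 3 fell in control and 7 in knockout from ZT8 to ZT16, and none rose, where 12.7% and 13.6% of all probes fell. The part of these shifts in the results was not tested.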

How the data were processed

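Liver RNA from 36 samples was labelled with Cy3 (200 ng each) and read on Agilent mouse arrays with mm9 probe coordinates. The deposited intensity values are background-subtracted processed signals from Feature Extraction 10.10.1.1, per the file headers, with flags for outlier spots and for spots well above background. The deposited log2 value table of 32801 probes, processed by the authors, has the same median, 7.65, in every column. The submitters' processing notes also name limma. Its further steps are not given in the sources used here, and it served as an alternative.

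Each array's processed signals were put on a log2 scale and centred on the 75th percentile of its non-control spots. Outlier spots were left out. Probes well above background on at least 6 of 36 arrays (34769) were kept, and 91 with a missing value were dropped. All genes were fitted by lmFit and eBayes of limma 3.58.1 (R 4.3.3, with statmod 1.5.0), with 6 group means and the wash batch as terms. Benjamini-Hochberg adjustment ran over all 34678 probes within each of 13 comparisons, with a threshold of 0.05. Wash batches hold 11, 12 and 13 arrays, and each holds every group. The number of arrays limits the precision.

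All 10 genes are named with all probes, and the brightest probe stands for a gene. From each pathway list up to 3 genes with the smallest p in a genotype or ZT16 against ZT8 comparison were eligible to be named. A gene that these rules would name is not reported here, though it is included in the counts. The members and lists were chosen with earlier results of these data known. Scripts were tested on simulated data. Sequences were searched with Python 3.11.15 and edlib 1.3.9.post1, and figures drawn with matplotlib 3.10.9. Of the 10 genes, 6 had promoter windows in the RefSeq table (GRCm38.p6), and array coordinates were not converted between builds. Alternatives covered background correction, scaling, filters, wash batch, slide, array weights, samples fitted, replicate block, the authors' table and single arrays.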

Additional observations from a re-analysis of the deposited data

Results flagged for a closer look

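In 5 of the 60 groups of 6 values (10 genes in 6 groups), 1 sample lay far from the others for the group's range, where chance gives about 1 in 20. Hspa8 was 5.63 in knockout ZT8 replicate 3, while the others were 6.17 to 6.34. Hsph1 was 4.05 in control ZT12 replicate 5, with the others at 3.35 to 3.50, and Hsp90aa1 was 5.78 in the same sample, with the others at 5.26 to 5.45. Hsp90aa1 was 3.87 in knockout ZT8 replicate 1, with the others at 4.45 to 4.78. Hspb1 was 3.64 in knockout ZT12 replicate 1, with the others at 4.52 to 4.94.

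The genotype difference varied with time in limma's F test for 5 genes, each read by its brightest probe. The adjusted p was 6.6e-05 for Hspa8, 0.0066 for Hsph1, 0.0031 for Hsp90aa1, 0.00022 for Cirbp and 0.011 for Rbm3.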

How the results depend on the processing

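Of 120 gene comparisons, 67 were called, and no called difference changed sign in the 12 other settings or with any of the 36 arrays left out. Of the 67, 49 kept direction and call in all 12 settings and 55 with every single array left out. The ZT8 genotype count of 5 genes was 3 with the array median subtracted, with no filter on dim probes, with no wash batch term and with only the groups compared fitted. The change of the genotype difference from ZT8 to ZT12 called 2 genes and, with the array median subtracted, 0 by limma (3 at unadjusted p under 0.05). The ZT12 to ZT16 count in knockout, 5, was 3 with no filter and with only the groups compared fitted. The ZT8 to ZT12 count in knockout, 5, was 1 with only the groups compared fitted. The change from ZT12 to ZT16 called 2 genes with array weights, against 1. The cause was not tested.

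With single arrays left out, the ZT8 genotype count ran from 3 to 6, the ZT12 to ZT16 count in knockout from 3 to 6, and the count for the change from ZT8 to ZT12 from 1 to 2. With the replicate number as a replicate block, Hsph1 at ZT8 was also called (0.40, adjusted p 0.0312), which made 6 genes, and no other call of the 10 genes changed. The numbers do not pair the samples: of 90 same-numbered pairs, 15 correlated above 0.1 and 18 correlated best with their own number. With slide as a random block the estimated correlation was 0.0206. Signal over background limits the dim Hsph1 probe A_55_P2931347.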
